A study of Homo sapiens with 8 samples.

Results

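The MCM genes MCM2, MCM3, MCM4, MCM5, MCM6, MCM7, MCM8 and MCM10 were followed in 4 human renal carcinoma lines treated with A939572, an inhibitor of stearoyl-CoA desaturase 1. Members were all probe sets that the platform annotation gives to exactly one of these 8 genes, which found 18 of the 54675 probe sets on the array, or 8 of 19775 genes. ACHN, CAKI2, A498 and CAKI1, established lines bought from a cell bank and described by the submitters as clear cell carcinoma, were grown in the same serum-supplemented medium. Each line gave 1 array of cells treated with 75 nM A939572 for 24 h and 1 array of cells given DMSO for 24 h, so that the lines are the replicates (4 treated arrays against 4 controls). The labels give no culture beyond the line itself, and p-values measure the spread between these lines.

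MCM2 to MCM7 form the ring-shaped core of the replicative DNA helicase. The ring is loaded on replication origins in G1 by the origin recognition complex with CDC6 and CDT1, and is switched on in S phase when CDC45 and the GINS complex join it to make the CMG helicase. MCM10 is not a ring subunit and helps to activate the assembled helicase, and MCM8 pairs with MCM9 in a separate helicase known for homologous recombination. Transcription of MCM genes is known to rise towards S phase under E2F factors in dividing cells.

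All 8 MCM genes were lower in treated cells, by 1.49-fold (MCM8) to 4.72-fold (MCM6), and 0 were higher (limma adjusted p at or below 0.05, Benjamini-Hochberg over 12093 genes, cell line as a block). Of all genes tested, 15.9% were called lower. The median log2 difference, A939572 minus DMSO, was -1.76 over the 8 genes and -0.03 over all genes tested. At least 2-fold falls were seen for 7 of the 8, against 3.61% of all genes. In the same 7 genes every DMSO signal lay above every treated signal, which was so for 5.18% of all genes, and the same 7 were lower in 4 of 4 lines, against 25.3% of all genes. Without the cell line as a block 3 of the 8 passed (MCM2, MCM4 and MCM6), and median centring of the arrays in place of quantile normalization changed the calls over all genes from 1928 lower and 1778 higher to 1544 lower and 2163 higher.

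RefSeq promoters (GRCh38.p14) matched 6 of the 8 genes, MCM2, MCM3, MCM6, MCM7, MCM8 and MCM10; MCM4 and MCM5 are named only. Windows ran from 250 bases before to 30 bases after the annotated start, and were searched on both strands for the E2F-type letters TTTCCCGC, TTTCGCGC, TTTGCCGC and TTTGGCGC, where matches on opposite strands may overlap. Of these, 4 promoters are shown because they belong to the gene with the largest mean fall in the brightest probe sets (MCM6, chr2:135876414-135876693, minus strand), a ring gene with its match at the start (MCM2, chr3:127598161-127598440, plus strand), a gene outside the ring that fell 3.51-fold (MCM10, chr10:13161308-13161587, plus strand) and the gene with the smallest fall (MCM8, chr20:5950402-5950681, plus strand). Capitals mark the E2F-type matches.
MCM6: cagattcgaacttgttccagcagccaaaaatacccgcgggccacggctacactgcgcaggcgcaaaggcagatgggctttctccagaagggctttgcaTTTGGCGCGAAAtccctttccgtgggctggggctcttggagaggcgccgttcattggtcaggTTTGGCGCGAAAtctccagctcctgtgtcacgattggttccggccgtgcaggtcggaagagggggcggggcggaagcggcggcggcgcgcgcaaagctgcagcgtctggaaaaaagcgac
MCM2: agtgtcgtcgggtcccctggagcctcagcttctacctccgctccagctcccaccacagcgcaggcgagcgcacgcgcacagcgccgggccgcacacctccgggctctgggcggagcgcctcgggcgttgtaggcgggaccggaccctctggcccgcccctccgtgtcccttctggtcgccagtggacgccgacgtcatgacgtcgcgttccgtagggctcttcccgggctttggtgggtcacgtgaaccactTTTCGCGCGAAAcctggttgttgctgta
MCM10: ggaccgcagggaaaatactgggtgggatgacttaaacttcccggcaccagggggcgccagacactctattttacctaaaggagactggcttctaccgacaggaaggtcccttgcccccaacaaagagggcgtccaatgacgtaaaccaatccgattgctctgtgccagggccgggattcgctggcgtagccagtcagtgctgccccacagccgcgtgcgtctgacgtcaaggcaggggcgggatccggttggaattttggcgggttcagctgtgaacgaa
MCM8: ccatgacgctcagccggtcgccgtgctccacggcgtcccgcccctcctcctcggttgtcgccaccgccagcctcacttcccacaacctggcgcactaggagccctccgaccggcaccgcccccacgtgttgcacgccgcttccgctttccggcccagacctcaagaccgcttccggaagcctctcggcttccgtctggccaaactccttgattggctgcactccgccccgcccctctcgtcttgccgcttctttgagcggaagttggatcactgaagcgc

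An E2F-type match was found in 4 of the 6 promoters, those of MCM2, MCM3, MCM6 and MCM7 at its outermost start, and in 3.14% of all 35116 promoter windows. The window of MCM6 held 4 matches in 2 capitalised blocks, in which a sense match beginning at base -152 or -90 from the start overlaps an antisense match beginning at base -148 or -86. In MCM2 a sense match began at base 3 after the start and overlapped an antisense match. MCM3 (chr6:52284713-52284992, minus strand) had matches beginning at bases -174 and -4, and MCM7 (chr7:100101368-100101647, minus strand) at bases -187 and -9. The other 2 starts listed for MCM7 held no match. The windows of MCM8 and MCM10 held none of these letters. The CCAAT box, the motif of the factor NF-Y, was found in 5 of the 6 windows (all but that of MCM2), against 33.6% of all windows. These matches describe letters and not bound sites.

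The catalytic side of the ring was read from MCM4, MCM6 and MCM7, subunits that together can unwind DNA in vitro. MCM6 had the largest fall of the family in the brightest probe sets over all 4 lines, but not without CAKI2 (-1.97, against -2.10 for MCM4) or with the mean of all probe sets (-1.79, against -1.99 for MCM3). Its signal went from 6393 units in DMSO to 1342 with A939572 in ACHN, from 8263 to 995 in CAKI2, from 8758 to 2579.9 in A498 and from 4939 to 1276 in CAKI1. All 4 treated signals lay far below the lowest control. The log2 difference of MCM6 was -2.24 ± 0.57 (SD, n = 4 lines; limma adjusted p = 0.000198), or 4.72-fold lower.

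MCM4 fell in a narrower range. Its signal went from 3511 to 555 in ACHN, from 2501 to 543 in CAKI2, from 2798 to 711 in A498 and from 3591 to 1114 in CAKI1. The treated arrays stood apart from the controls in each line, and CAKI1 kept the highest treated signal. The log2 difference was -2.12 ± 0.42 (limma adjusted p = 0.000134), a 4.35-fold fall. MCM7, whose introns host a microRNA cluster, changed least among the ring genes, with signals of 2834 and 1026 in ACHN, 2457 and 1131 in CAKI2, 3219.9 and 1789 in A498, and 1870.1 and 980.1 in CAKI1, DMSO first. Its treated signal in A498 came close to the lowest control, that of CAKI1, without reaching it. The log2 difference of MCM7 was -1.11 ± 0.27 (adjusted p = 0.000705), the smallest SD over lines in the family.

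MCM2, MCM3 and MCM5 make up the other side of the ring, where MCM2 and MCM5 form the gate through which DNA enters. MCM2, which also binds histones at the fork, had nearly equal control signals, at 2702 in ACHN, 2742 in CAKI2, 2555 in CAKI1 and 2415 in A498. The corresponding treated signals were 726, 762, 1227 and 987. The lines thus started together and ended apart, with CAKI1 highest after treatment. MCM2 fell by 1.52 ± 0.42 on the log2 scale (limma adjusted p = 0.000435).

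MCM3, the subunit that contacts the loading complex, went from 2358 to 394 in ACHN, from 3579 to 631 in CAKI2, from 2295 to 720.1 in A498 and from 1183 to 478 in CAKI1. CAKI1 had the lowest control signal and the smallest fall. The log2 difference of MCM3 was -1.99 ± 0.62 (limma adjusted p = 0.000383). MCM5 varied most between lines, from 541 to 199 in ACHN, from 1342 to 137 in CAKI2, from 1055 to 269 in A498 and only from 425 to 311 in CAKI1. Its log2 difference was -3.18 in CAKI2 and -0.39 in CAKI1, with a mean of -1.71 ± 1.18 (adjusted p = 0.00722). CAKI2 and CAKI1 carried that spread, and the mean was -1.22 without CAKI2 and -2.14 without CAKI1.

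**Figure D1:**
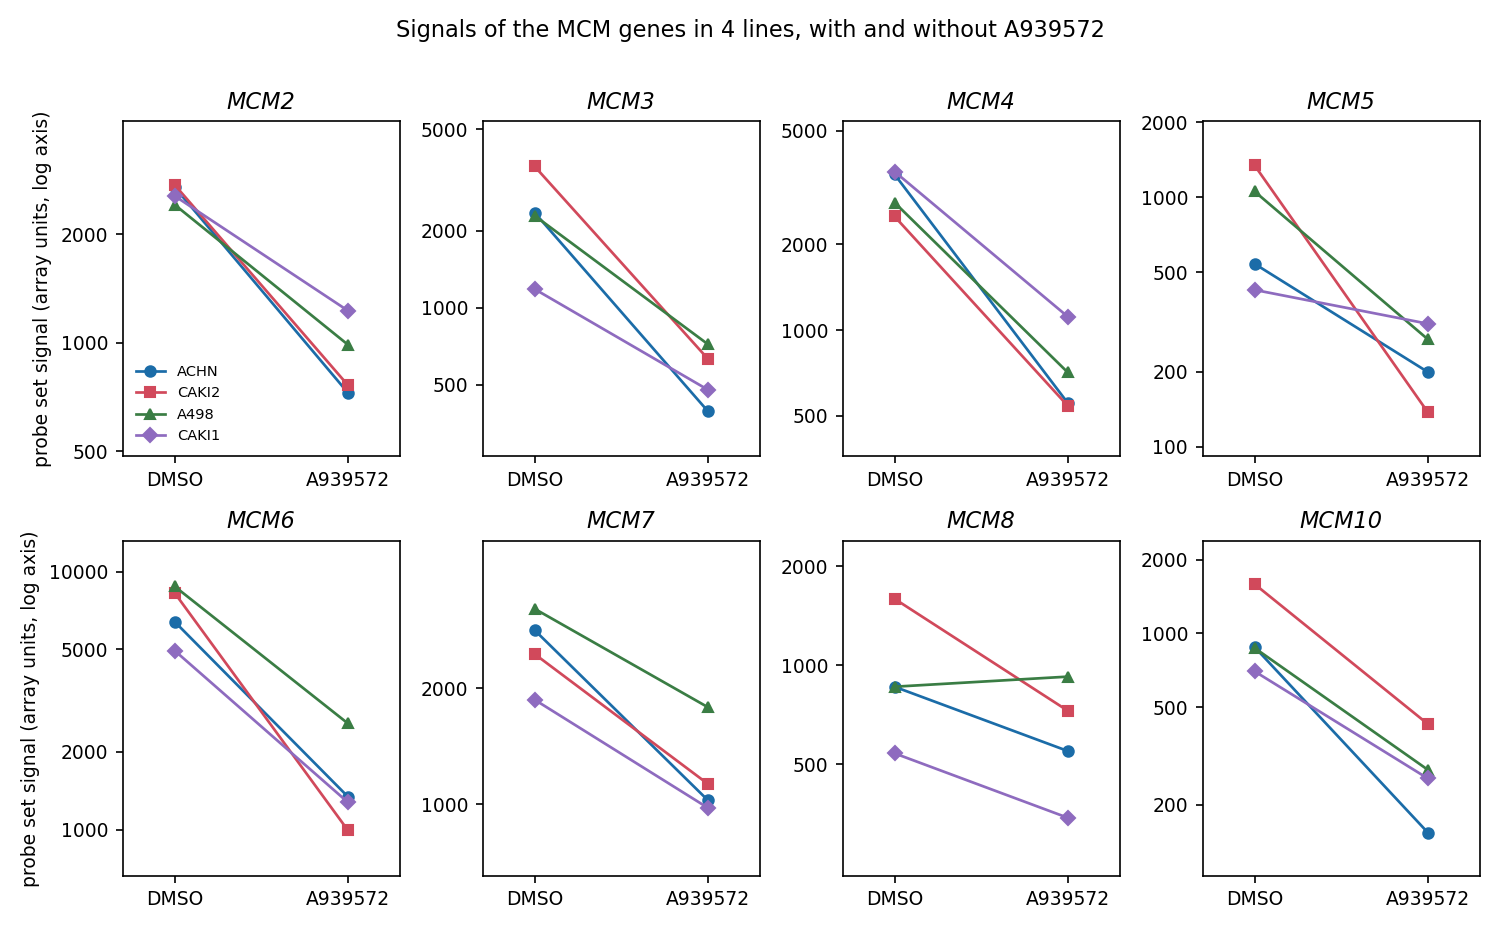
Deposited probe set signals (array units, log axis) of the brightest probe set of each MCM gene in DMSO and A939572, with 1 line joining the 2 arrays of each cell line. Every line slopes down except that of MCM8 in A498, from 861 to 924, and the slope of MCM5 is shallow in CAKI1, from 425 to 311.

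Outside the ring, both MCM10 and MCM8 fell, MCM10 by 3.51-fold and MCM8 by 1.49-fold. The signal of MCM10 went from 879.6 to 154 in ACHN, from 1589 to 427 in CAKI2, from 872 to 278 in A498 and from 700.3 to 256 in CAKI1. Controls and treated arrays did not overlap. The log2 difference of MCM10 was -1.81 ± 0.41 (limma adjusted p = 0.0003). Against the mean of the 6 ring genes in the same line, its difference was lower by 0.31 in ACHN, by 0.03 in A498 and by 0.19 in CAKI1 and higher by 0.41 in CAKI2, a mean gap of -0.03 ± 0.31.

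MCM8 had signals of 861 and 549 in ACHN, 1594 and 728 in CAKI2, 861 and 924 in A498, and 540.2 and 344 in CAKI1, DMSO first. Control and treated signals overlapped, and A498 did not go down. The log2 differences were -0.61 in ACHN, -1.17 in CAKI2, -0.61 in CAKI1 and 0.08 in A498, with a mean of -0.58 ± 0.51 (limma adjusted p = 0.0489). Relative to the mean of the ring genes in the same line, MCM8 lay higher by 1.20 ± 0.47, in 4 of 4 lines. An exact 2-sided test on 4 pairs cannot give a p below 0.125, and the gap was not tested. The fall of MCM8 is at the edge of the threshold. The call was kept in 4 of 13 alternatives. It was lost without ACHN (adjusted p = 0.116), CAKI2 (0.196) or CAKI1 (0.115), among others, and the mean of its 2 probe sets gave 0.16 (0.608).

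**Figure D2:**
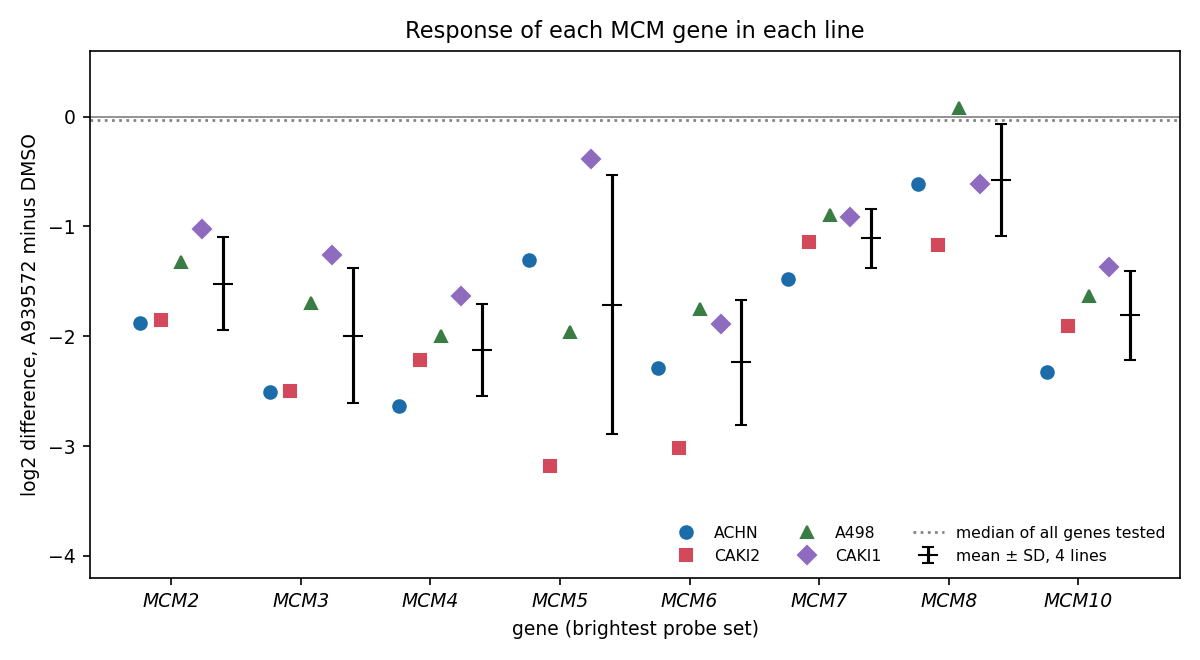
Log2 difference, A939572 minus DMSO, of each MCM gene in each line (symbols) with the mean ± SD over 4 lines (black), on quantile normalized log2(signal + 16). The dotted line is the median of all genes tested, -0.03. MCM6 has the lowest mean at -2.24 and MCM8 the highest at -0.58, with A498 above 0, and MCM5 spreads from -3.18 to -0.39.

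For MCM4, MCM5, MCM7 and MCM10, the genes with more than 1 bright probe set, the bright probe sets gave the same direction. MCM2, MCM3, MCM6 and MCM8 had 1 bright probe set each, so none could be compared. Of the 18 member probe sets, 15 had a mean at or above 6.41 on the log2 scale, the median of all probe sets, and could be tested. In a fit across all 27307 such probe sets, 14 of the 15 were lower and 0 higher, against 13% of all probe sets called lower. The exception was the MCM8 probe set described above, whose adjusted p was 0.052 in that fit. DMSO and treated signals did not overlap for 13 of the 15, against 4.6% of all probe sets.

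For MCM4, 4 tested probe sets had log2 differences of -2.12, -2.05, -2.35 and -1.93 from the brightest to the dimmest, with SDs over lines of 0.42 to 0.72. For MCM5 the dimmer probe set had -1.43 ± 0.63, and it went down by 1.10 in CAKI1 and by 0.73 in A498. The order of the lines thus differed between the MCM5 probe sets, since A498 had -1.96 and CAKI1 -0.39 in the brighter. The dimmer probe set of MCM7 had -1.29 ± 0.35, and those of MCM10 had -1.70 ± 0.69 and -1.35 ± 0.40.

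A further 3 probe sets lay below the filter and carry little weight. The dim MCM6 probe set had control signals of 81.8 to 142 units and treated signals of 16.6 to 48.7, lower in 4 of 4 lines. The dim MCM4 probe set had 5.42 to 43.4 in DMSO and 11.7 to 65.4 with A939572, and was higher in all lines but ACHN. The dim MCM8 probe set had signals of at most 57.7 in DMSO and 93.0 with A939572, and was higher in all lines but A498. Their directions were thus mixed, at mean levels below the median of all probe sets.

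**Figure D3:**
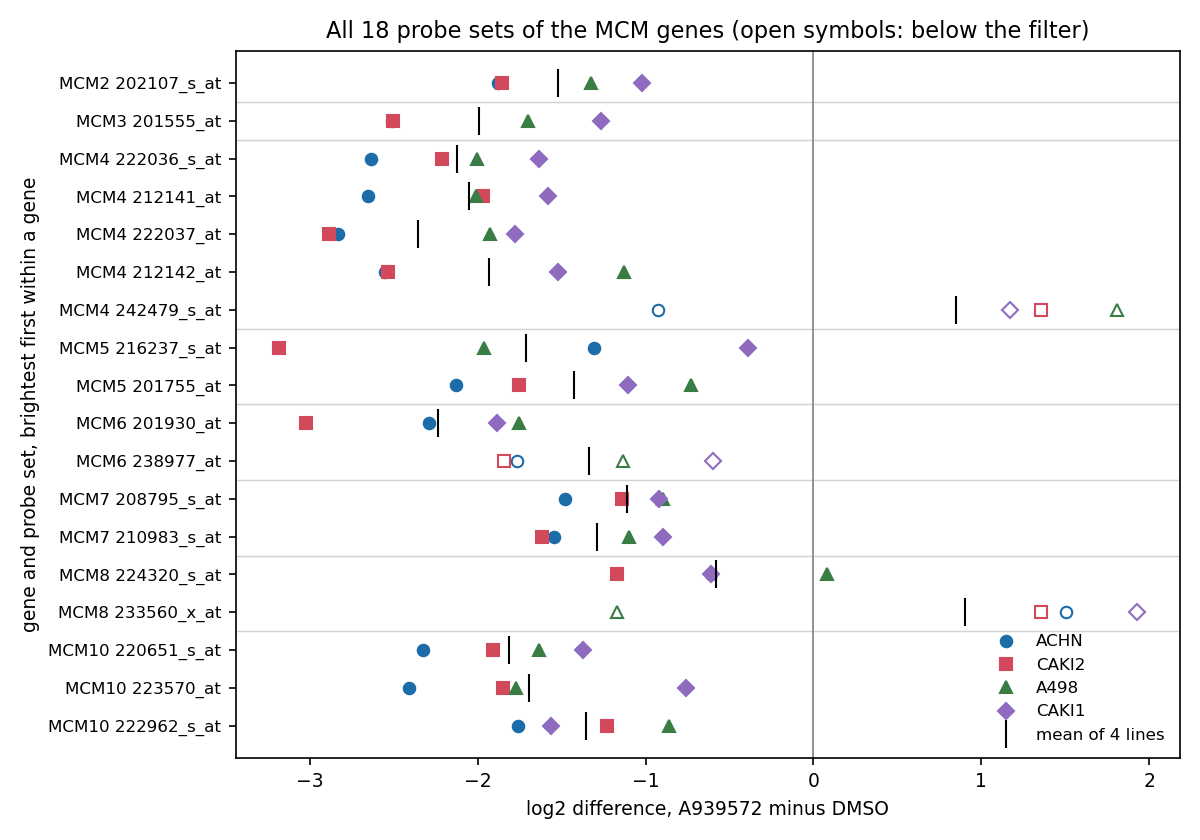
Log2 difference, A939572 minus DMSO, in each line (symbols) and its mean over 4 lines (black ticks) for the 18 probe sets, with open symbols for the 3 below the filter. Means of the 15 tested probe sets run from -2.35 to -0.58, and 2 of the dim ones have means above 0.

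The lines differed in how far the family fell. The mean log2 difference of MCM2 to MCM7 was -2.32 in CAKI2, -2.02 in ACHN, -1.61 in A498 and -1.19 in CAKI1. With 1 array against 1 in a line these are values without a test. These means, and the counts and ranks below, rest on the brightest probe set of each gene. The dimmer MCM5 probe set had -2.13 in ACHN, -1.75 in CAKI2, -1.10 in CAKI1 and -0.73 in A498. The order of CAKI2 and ACHN in the means thus hangs on the MCM5 probe set. At least 2-fold falls were seen for 8 members in CAKI2, 7 in ACHN, 6 in A498 and 5 in CAKI1, where 6.24%, 8.08%, 5.79% and 5.47% of all genes tested fell that far. In the brightest probe sets the member that fell most was MCM4 in ACHN and A498, MCM5 in CAKI2 and MCM6 in CAKI1. MCM8 ranked last or next to last of the 8 in each line.

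In 7 of 8 members the differences in ACHN and CAKI2 were both lower than those in A498 and CAKI1, a pattern noticed after the values were seen, and 15.7% of all genes tested had it. The exception was MCM5 in its brightest probe set, and in MCM8 the values of ACHN and CAKI1 were equal to 2 decimals. The dimmer MCM5 probe set had the pattern. A dimmer MCM4 probe set lacked it, with -1.97 in CAKI2 and -2.01 in A498. So did a dimmer MCM10 probe set, with -1.23 in CAKI2 and -1.56 in CAKI1. Signs of RNA quality differed between the groups too. The 3′ over 5′ signal of the ACTB control probe sets was higher with treatment by 0.98 in ACHN, 0.64 in CAKI2, 0.51 in CAKI1 and 0.42 in A498 on the log2 scale, while that of GAPDH was higher by 0.08 ± 0.05 over the 4 lines. The 5′ over middle signal of the 28S ribosomal RNA controls was higher by 1.81 ± 0.43. The part of these in the falls of the MCM genes was not tested. In bulk RNA, fewer cells in S phase and less MCM RNA per cell cannot be told apart.

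Renal markers were present in part. The kidney lineage factors PAX8 and PAX2 and the keratins KRT8 and KRT18 had means over all arrays above the filter. AQP1, CDH16, LRP2 and CUBN of differentiated tubules lay below it. PAX8 rose by 0.38 (limma adjusted p = 0.0294), while PAX2, KRT8 and KRT18 did not pass. PAX2 was dim in CAKI1, with signals of 40.3 in DMSO and 42.6 with A939572. CA9, also listed as a renal marker, had no probe set with 1 symbol. Of the 3 leukocyte markers measured, 0 lay above the filter, with summed signals of 70.6 to 133 in DMSO and 30.1 to 136 with A939572. Endothelial markers had PECAM1 alone above it (1 of 3, summed signals of 163 to 489 and 143 to 328), and fibroblast markers COL1A1 alone (1 of 4, 220.0 to 1345 and 185 to 1005), which fell by 1.04 (adjusted p = 0.00318). Their part in the results was not tested.

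Levels of a gene can be compared between lines within a probe set. With both arrays of each line and the treatment in the model, 3 of 8 members differed between the lines by limma's F test (adjusted over all genes), against 61% of all genes. These were MCM7 (adjusted p = 0.0293), MCM8 (0.0157) and MCM10 (0.0186). The count ran from 1 without CAKI1 to 6 without ACHN. The call of MCM7 was lost without A498 (adjusted p = 0.356) or CAKI1 (0.0895) and with median centring (0.0578), that of MCM8 without CAKI1 (0.2) and with the mean of its probe sets (0.71), and that of MCM10 without CAKI2 (0.556). No line has repeated arrays of a treatment, so the error is the unequal response of the lines. A level over both arrays also mixes the control level of a line with its response.

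MCM10 was highest in CAKI2, with a mean log2 level over both arrays of 9.73, above A498 at 8.97 (limma adjusted p = 0.0441), CAKI1 at 8.85 (0.0227) and ACHN at 8.63 (0.00896). The last 3 did not differ beyond their spread in any pair. In DMSO alone MCM10 ran from CAKI2 at 10.68 through ACHN and A498, both at 9.79, to CAKI1 at 9.53. MCM8 ran from CAKI2 at 10.11 through A498 at 9.81 and ACHN at 9.46 to CAKI1 at 8.86, and no neighbours in that order differed. CAKI1 was below both CAKI2 (adjusted p = 0.00683) and A498 (0.0242). MCM7 was highest in A498 at 11.24 and lowest in CAKI1 at 10.43, and only that pair passed (adjusted p = 0.0113), with ACHN at 10.74 and CAKI2 at 10.72 between them.

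For the other ring genes at most 1 of 6 pairs of lines passed. MCM6 was higher in A498 at 12.21 than in CAKI1 at 11.29 (limma adjusted p = 0.0273), with ACHN at 11.53 and CAKI2 at 11.49 between them. MCM3 was higher in CAKI2 at 10.56 than in CAKI1 at 9.62 (adjusted p = 0.036), with A498 at 10.35 and ACHN at 9.96. MCM4 went the other way, lower in CAKI2 at 10.21 than in CAKI1 at 10.98 (adjusted p = 0.0309), and had 10.48 in both ACHN and A498. MCM2 ran from CAKI1 at 10.81 through A498 at 10.60 and CAKI2 at 10.51 to ACHN at 10.47. MCM5 ran from A498 at 9.10 through CAKI2 at 8.84 and CAKI1 at 8.62 to ACHN at 8.46. Neither had a pair that passed. Of all genes tested, 34.5% passed between ACHN and CAKI2, 30.7% between ACHN and A498, 26.9% between ACHN and CAKI1, 33.8% between CAKI2 and A498, 36.4% between CAKI2 and CAKI1 and 36% between A498 and CAKI1. In DMSO alone the levels of MCM2 lay within 0.18 on the log2 scale and those of MCM5 spread over 1.62 on the same scale. MCM7 and MCM8 each kept in DMSO alone their own order of the lines over both arrays. For the other members the order in DMSO differed from that over both arrays. From high to low it was CAKI2, ACHN, CAKI1 and A498 for MCM2, and CAKI2, A498, ACHN and CAKI1 for MCM5. MCM4 had 11.31 in CAKI2 and 11.79 in CAKI1 in DMSO, and 9.10 and 10.16 with A939572.

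The partners of the ring were read from a list of 37 genes by role, of which 35 were tested. Of these 24 fell and 0 rose, against 15.9% of all genes lower and 14.7% higher, with a median log2 difference of -0.63. Among the 5 CMG partners 4 fell. GINS2 had -2.33 ± 0.57 (limma adjusted p = 0.000208) and GINS1 -1.22 ± 0.35 (adjusted p = 0.000645). The GINS2 value rests on its brightest probe set, since the next had -0.19 ± 0.22. CDC45, named after its value was seen, had -0.88 ± 0.46 (adjusted p = 0.00748), and GINS3 did not pass.

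The loading step was divided. CDT1, which brings the ring to origins, fell by 1.86 ± 0.55 (limma adjusted p = 0.000435) in its brightest probe set, against -0.37 ± 0.13 in the other, and ORC1 fell by 1.17 ± 0.43 (adjusted p = 0.00318). GMNN, which encodes geminin, the inhibitor of CDT1, fell as well, by 1.10 ± 0.39 (adjusted p = 0.00104). The other 6 of 8 loading genes did not pass, with ORC2, ORC3, ORC4 and ORC5 between -0.12 and 0.07. ORC6 had -0.32 ± 0.23 and was lower in 3 of 4 lines (adjusted p = 0.0736).

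CDC6, the other loading factor, was singled out after its values were seen. Its signal was 2364 in DMSO and 1835 with A939572 in ACHN, 3742 and 6070.1 in CAKI2, 1988 and 5350.4 in A498, and 747 and 1293 in CAKI1. It was thus higher with treatment in all lines but ACHN, on arrays on which all ring genes were lower. The log2 difference was 0.62 ± 0.75 and did not pass (limma adjusted p = 0.0795). Its second probe set had 0.38 ± 0.81, with -0.81 in ACHN and 0.63 to 1.04 in the others. The value stayed above 0 in the 14 alternatives run, from 0.35 to 0.95. It passed in 2 of them, without ACHN (0.95, adjusted p = 0.00758) and with median centring (0.72, adjusted p = 0.0384).

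Firing factors, which turn loaded rings into moving helicases, fell in 6 of 8 cases. CDC7, the kinase that phosphorylates the ring, had -0.99 ± 0.27 (limma adjusted p = 0.00163) and DONSON, which helps to bring in GINS, had -0.78 ± 0.13 (adjusted p = 0.00175). All 9 polymerase and fork factors fell, among them POLE2, a subunit of the leading strand polymerase, with -1.60 ± 0.29 (adjusted p = 0.0003) and CLSPN, which encodes the checkpoint mediator claspin, with -1.43 ± 0.40 (adjusted p = 0.00179). Of the chaperone and unloading genes, MCMBP, which binds MCM subunits outside the CMG helicase, fell by 0.57 ± 0.25 (adjusted p = 0.0103). TONSL, a reader of new histones at forks, fell by 1.15 ± 0.75 (adjusted p = 0.0251), and its call was lost without ACHN (-0.78, adjusted p = 0.0659), CAKI2 (0.0554) or A498 (0.0511).

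MCM9, the partner of MCM8, did not pass, with 0.35 ± 0.42 (limma adjusted p = 0.205) in its brightest probe set and -0.29 ± 0.35 in the next. MCM3AP, a nuclear export factor that carries the MCM name, had 0.39 ± 0.23, higher in 4 of 4 lines (adjusted p = 0.0595). It passed with the authors' scaling alone (adjusted p = 0.0477) and with median centring (0.0259), and had -0.020 with the mean of its probe sets. HROB, which recruits MCM8 and MCM9, and MCMDC2 lay below the filter.

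**Figure D4:**
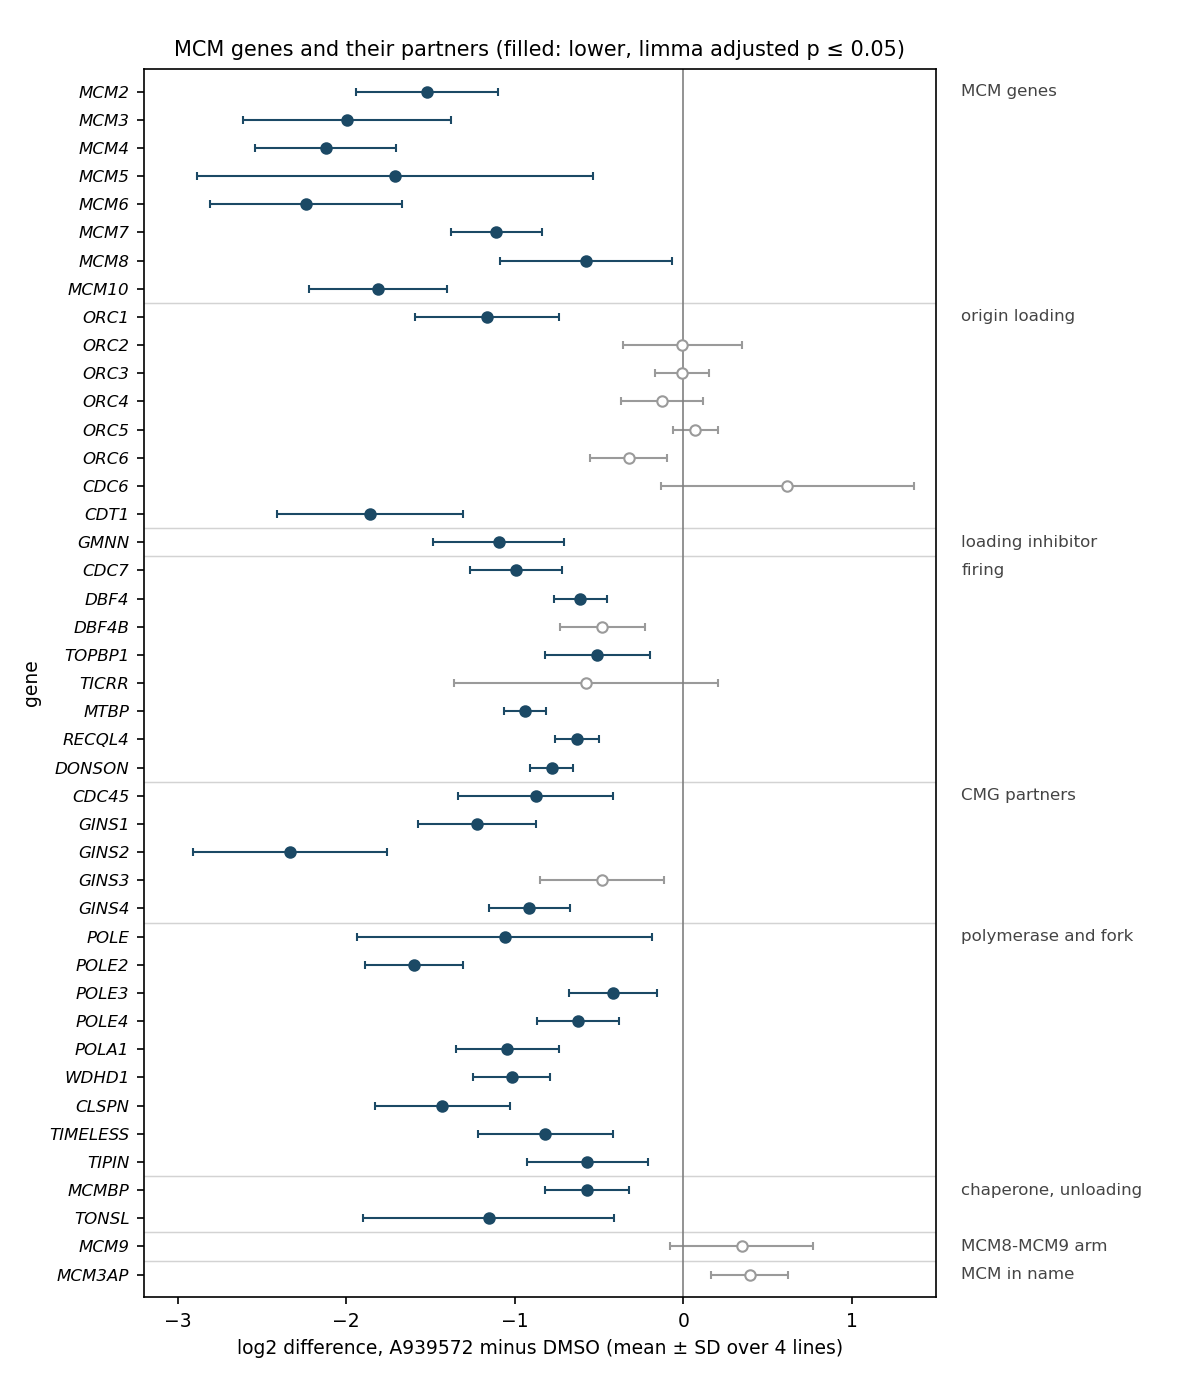
Mean log2 difference, A939572 minus DMSO, ± SD over 4 lines for the 8 MCM genes and the 35 partner genes tested, grouped by role, with filled symbols for genes called lower. The ring genes lie between -2.24 and -1.11, CDT1 at -1.86 lies within that range and GINS2 at -2.33 just below it, while CDC6 at 0.62, MCM9 at 0.35 and MCM3AP at 0.39 lie above 0 and did not pass.

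The genes nearest to the ring in response were taken by the root mean square distance between their 4 log2 differences and the mean of MCM2 to MCM7 in the same lines. SPC25, a kinetochore gene, was nearest at 0.06, with -1.98 in ACHN, -2.27 in CAKI2, -1.27 in CAKI1 and -1.65 in A498. KANK2 (0.22), the chromatin remodeller gene HELLS (0.24), DSCC1 (0.24) and CENPU (0.29) of the centromere followed. Among the members themselves MCM3 and MCM10 lay at 0.27, MCM2 at 0.29, MCM4 at 0.43, MCM6 at 0.52, MCM5 at 0.71, MCM7 at 0.75 and MCM8 at 1.27. MCM2 to MCM7 enter the mean they are measured against. Their distances are thus not on the same footing as those of MCM8, MCM10 and the genes outside the family. These distances rest on the brightest probe set of each gene. With the mean of all its probe sets KANK2 had -0.76 and did not pass (limma adjusted p = 0.0909), DSCC1 had -0.99, CENPU -1.20 and HELLS -1.45. The distance was computed from 4 lines and selects on the values it describes.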

How the data were processed

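Per the labels' protocols, total RNA was made into biotin-labelled cRNA, and 1 array was hybridized for each of 8 samples. The deposited values are intensity signals on a linear scale, 1 per probe set, with a 2% trimmed mean of 500.067 to 500.073 on every array. The summarizing program is not given in the sources used here. All 8 columns of the table were used.

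Signals were transformed as log2(signal + 16), which understates the change of dim genes, and quantile normalized without 62 control probe sets. Probe sets with 1 symbol in the platform annotation were named through the Entrez ID (41043 of 41097 matched a current symbol), and 1801 with several symbols were not assigned. Each gene was read from its probe set with the highest mean, and 12093 genes with a mean at or above 6.41 were tested with limma 3.58.1 (R 4.3.3): lmFit and eBayes with a variance trend, 2-sided, Benjamini-Hochberg at 0.05, cell line as a block. The lines pair the arrays by the submitters' design. Across genes, departures from the group mean correlated at 0.818 to 0.864 within a line and at no more than -0.03 between lines. Centring on the group mean itself pushes the correlations between lines below 0, so these are no check of the pairing. Precision is limited by the number of arrays (median SE 0.17). The fit was tested on simulated data. Errors are SDs over lines.

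Named were all members, in the partner list the 2 genes per role with the smallest p, and the 5 genes nearest in response. The members and lists were chosen with earlier results of these data known. Alternatives covered scaling, offset, filter, variance trend, block, choice of probe set and each line left out.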

Additional observations from a re-analysis of the deposited data

Results flagged for a closer look

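The differences of MCM8 had opposite signs between lines. Its log2 difference was 0.0785 in A498 and -0.61 to -1.17 in the other 3 lines. Each line has 1 array per treatment, so the difference between lines was not tested. The A498 value was above 0 with the authors' scaling alone and with median centring (0.22), and had -0.55 with the mean of both MCM8 probe sets, of which the second is dim. In 31 groups of 4 values (levels in DMSO, levels with A939572 and differences of each gene, and differences of the other tested probe sets), 0 had a sample far from the others, where chance gives about 1 in 20.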

How the results depend on the processing

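Over 14 alternatives MCM4 and MCM6 kept their direction and call. MCM2 kept both over 13, since its probe set drops out when those that can match several transcripts are omitted. MCM3, MCM5, MCM7 and MCM10 lost their calls only without the replicate block, that is without the cell line in the model (adjusted p = 0.0509, 0.11, 0.103 and 0.0639). In that setting 3 of the 8 genes, 5 of the 15 probe sets and 1 of the 35 partners were lower, and 29 genes of all were lower and 38 higher. At an unadjusted p, 7 of the 8 genes were at or below 0.05. Without probe sets ending in _s_at, _x_at or _a_at, 5 members could be read and 5 were lower. The call of MCM8 was also lost with median centring (adjusted p = 0.0888), offset 1 (0.0545), no filter (0.0778) and no variance trend (0.0879). Averaging all probe sets of a gene turned the sign for MCM8 (0.16), MCM9 (-0.14) and MCM3AP (-0.020), and dim probe sets enter that mean. Without each line in turn, 7 to 8 members were lower and 1 to 6 differed between lines. The cause of the lost calls was not tested. Partners called higher ran from 0 to 2. Other counts of calls stayed within 1.5 times those reported.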
